A study of Mus musculus with 272 samples.

Results

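The genes of oncostatin M and JAK-STAT3 signalling were examined in the chromatin of mouse muscle stem cells (MuSCs), the quiescent cells that rebuild skeletal muscle after injury. The members were 10 genes chosen by name from the 55413 genes of the GENCODE M21 annotation (mm10), the ligand *Osm*, the receptor chains *Osmr*, *Lifr* and *Il6st*, the kinases *Jak1* and *Jak2*, the transcription factor *Stat3*, and the inhibitors *Socs1*, *Socs2* and *Socs3*. The rule is a list of names and uses no measured value, but the names were picked with earlier results of these data known. The series holds 272 samples, most of them editing experiments, and 8 of its peak lists were used here. With 2 replicates each, they cover open chromatin (ATAC-seq) and 3 histone marks (ChIP-seq). H3K4me3 is found at promoters, H3K27ac at promoters and enhancers in use, and H3K27me3 where Polycomb represses genes. The cells were sorted by GFP from hindlimb muscle of Pax7Cas9 mice, in which Cre expressed from *Pax7* switches on Cas9 in the *Pax7* lineage, so that all 8 libraries carry both alleles. No treatment, time point or second genotype was compared, the labels of these libraries give the tissue as skeletal muscle without an age, and nothing in them says whether the replicates came from different animals.

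Oncostatin M is a cytokine of the interleukin-6 family that macrophages, neutrophils and T cells release. It binds OSMR paired with gp130, the shared signalling chain encoded by *Il6st*, and the LIF receptor paired with gp130 can bind the related ligand LIF. The receptor-bound kinases JAK1 and JAK2 then phosphorylate STAT3, which enters the nucleus and binds palindromic sites in its target genes. Among these targets are the SOCS genes, whose products shut the receptor complex off again. In muscle, signalling through OSMR is known to help keep MuSCs quiescent, and STAT3 is known to influence their differentiation.

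The peak lists give the fold enrichment of each peak over its local background as called by the authors with MACS2. Promoters reached 3 kb to each side of every transcription start site (TSS) in the annotation, and a distal peak was one that touched no such region of any gene. Replicates 1 and 2 held 140937 and 94574 ATAC-seq peaks, 20519 and 18006 H3K4me3 peaks, 24217 and 18589 H3K27ac peaks, and 6080 and 10485 H3K27me3 peaks. The lists hold no read numbers, so the depth is unknown, and a region without a peak was not called rather than shown to be bare. In both replicates, the promoters of 13 of 13 MuSC marker genes carried H3K4me3 (60.8% of protein-coding genes) and those of 12 carried H3K27ac (46.6%). H3K4me3 was called in both replicates at 4 of 8 blood cell markers, 3 of 7 endothelial markers, 3 of 7 markers of fibro-adipogenic cells and 3 of 6 myofibre markers. H3K27ac was called in both replicates at 1 of 8 blood cell markers (*Cd68*), 1 of 7 endothelial markers (*Tek*), 1 of 7 markers of fibro-adipogenic cells (*Dpt*) and 2 of 6 myofibre markers (*Myh1* and *Mylpf*).

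Sites of open chromatin that the results turn on are printed here from the mm10 reference, as the 100 bases on either side of the ATAC-seq summit of replicate 1, 5′ to 3′ on the strand of the gene. The *Socs3* promoter and *Socs3* upstream sites hold the palindrome TTCCNGGAA, the stricter form of the STAT motif TTCNNNGAA. The *Socs3* downstream site lies under the strongest distal H3K27ac peak of the 10 genes, and the *Osmr* upstream site is their strongest distal ATAC-seq peak. The *Jak1* and *Stat3* sites have the highest fold enrichment among the distal peaks that hold the AP-1 motif TGANTCA, which is bound by FOS and JUN proteins. Capitals mark matches to the STAT and AP-1 motifs, and the sites without capitals hold neither.
*Socs3* promoter, chr11:117969213-117969413, minus strand: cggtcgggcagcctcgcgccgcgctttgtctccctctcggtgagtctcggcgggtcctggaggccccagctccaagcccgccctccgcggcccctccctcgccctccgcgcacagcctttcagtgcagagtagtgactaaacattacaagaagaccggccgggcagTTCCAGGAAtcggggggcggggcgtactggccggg
*Socs3* upstream, chr11:117995403-117995603, minus strand: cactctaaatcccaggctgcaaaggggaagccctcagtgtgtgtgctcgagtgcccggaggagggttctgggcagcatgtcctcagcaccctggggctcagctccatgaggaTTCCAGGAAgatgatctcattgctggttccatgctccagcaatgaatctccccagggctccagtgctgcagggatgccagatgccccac
*Socs3* downstream, chr11:117949814-117950014, minus strand: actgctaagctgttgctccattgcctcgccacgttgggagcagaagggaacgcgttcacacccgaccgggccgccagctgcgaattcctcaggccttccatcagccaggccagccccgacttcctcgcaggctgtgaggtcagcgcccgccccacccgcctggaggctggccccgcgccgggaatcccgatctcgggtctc
*Osmr* upstream, chr15:6909805-6910005, minus strand: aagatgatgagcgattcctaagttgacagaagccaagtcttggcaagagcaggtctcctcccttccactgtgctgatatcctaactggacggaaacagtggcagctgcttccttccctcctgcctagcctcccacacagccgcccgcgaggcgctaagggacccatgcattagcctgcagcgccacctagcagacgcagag
*Jak1* intron, chr4:101202761-101202961, minus strand: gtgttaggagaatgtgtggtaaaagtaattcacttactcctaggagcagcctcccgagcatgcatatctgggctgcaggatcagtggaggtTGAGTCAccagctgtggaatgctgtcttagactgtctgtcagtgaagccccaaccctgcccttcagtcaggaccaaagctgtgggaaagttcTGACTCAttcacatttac
*Stat3* upstream, chr11:100980042-100980242, minus strand: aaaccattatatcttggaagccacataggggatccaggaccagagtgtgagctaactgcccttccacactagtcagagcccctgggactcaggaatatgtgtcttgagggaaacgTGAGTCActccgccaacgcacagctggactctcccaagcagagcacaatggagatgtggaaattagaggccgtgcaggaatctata

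The promoters of the pathway were open throughout, and most carried both active marks (the plot of promoter peaks by gene). ATAC-seq peaks lay at all 10 promoters in both replicates, against 67.8% of the 21938 protein-coding genes. H3K4me3 was found at 9 of 10 (60.8% of protein-coding genes) and H3K27ac at 8 of 10 (46.6%). All 3 active features were present in both replicates at the same 8 genes, *Lifr*, *Il6st*, *Jak1*, *Jak2*, *Stat3*, *Socs1*, *Socs2* and *Socs3*, against 46.2% of protein-coding genes. H3K27me3 was found at 0 of 10 promoters, where the background was 4.81%. The genes that lacked an active feature were the ligand *Osm* and its own receptor chain *Osmr*. Genes with many TSSs have more promoter bases (6001 bp at *Osm*, 29971 bp at *Stat3*), and the shares of protein-coding genes were not matched for this. With 1 cell population there were no groups to test, and these counts are descriptions.

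**Figure D1:**
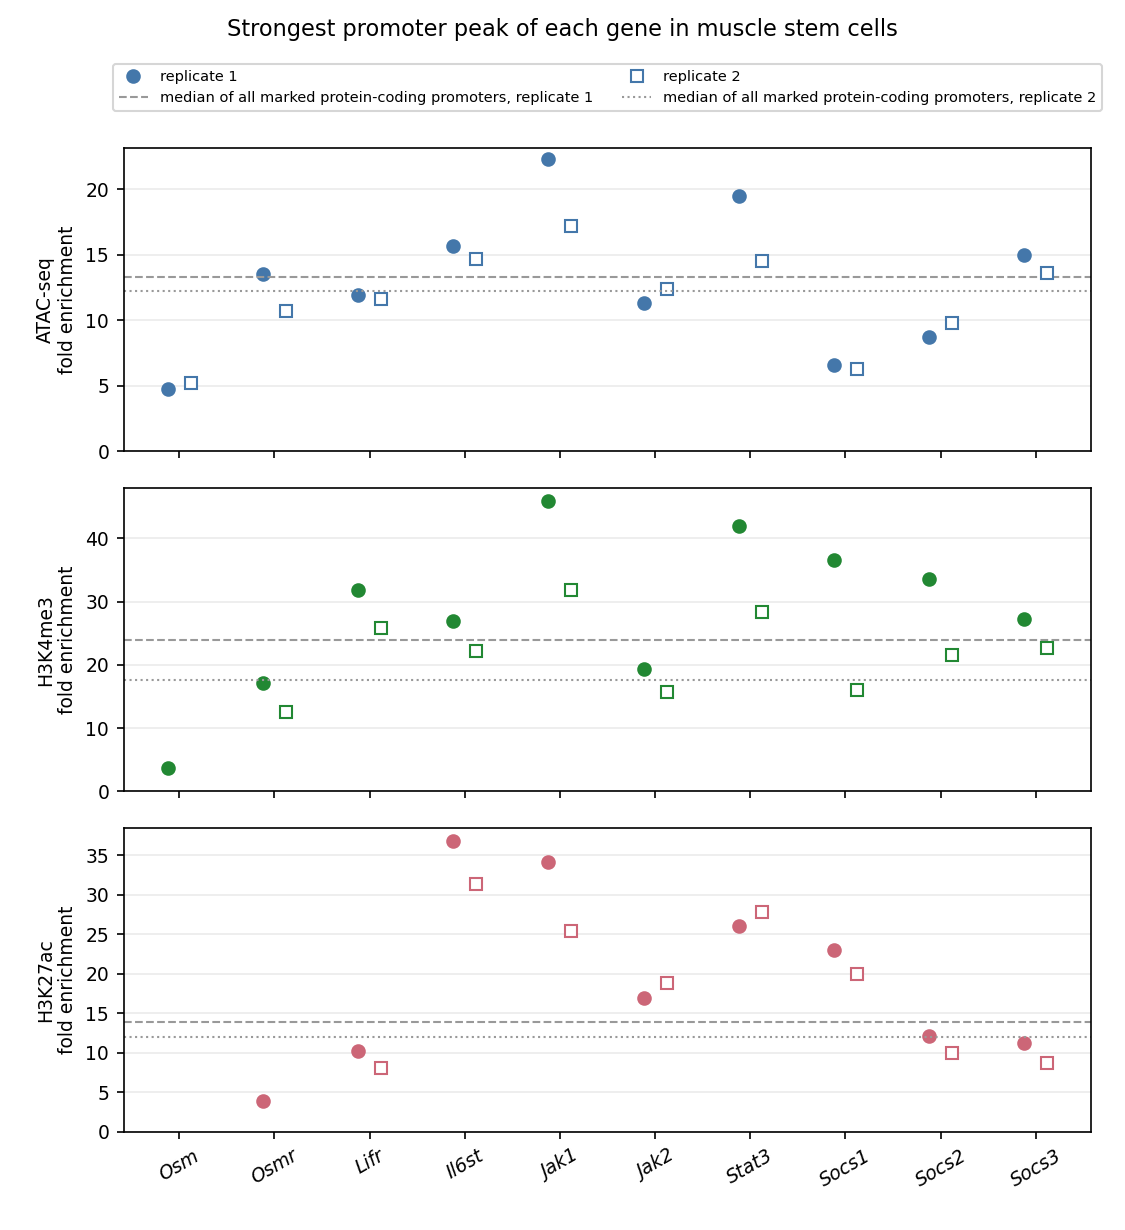
Fold enrichment (y axis, linear from 0) of the strongest promoter peak of each of the 10 genes (x axis) for ATAC-seq, H3K4me3 and H3K27ac; filled circles are replicate 1, open squares replicate 2, a missing symbol means no peak, the ATAC-seq symbols of *Jak1* and *Socs2* are different sites in the 2 replicates, and grey lines are medians over all protein-coding promoters with a peak. *Osm* has no H3K27ac symbol and *Osmr* only that of replicate 1, whereas *Il6st*, *Jak1*, *Stat3*, *Jak2* and *Socs1* lie above both H3K27ac medians.

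*Osm* (ENSMUSG00000058755.3), the gene of the secreted ligand, spans chromosome 11, 4236420 to 4241026, on the plus strand, and has a single annotated TSS. Its ATAC-seq peaks were enriched 4.76-fold in replicate 1 and 5.2-fold in replicate 2, with summits 1317 and 1121 bp after the TSS in an intron. These were the lowest values of the 10 genes, and only 2.44% and 6% of the marked protein-coding promoters had weaker peaks. H3K4me3 was called only in replicate 1 (fold enrichment 3.77, from 4236703 to 4237377), and 15.6% of that list was weaker. No H3K27ac peak touched the promoter in either replicate. When promoters were narrowed to 1 kb, replicate 1 had no ATAC-seq peak left, while replicate 2 kept a weaker one (3.96). The ligand gene was therefore marked only weakly. Its neighbour *Lif*, the gene of another gp130 ligand on the same chromosome within the 50 kb examined, was marked more strongly. *Lif* had ATAC-seq fold enrichments of 10.7 and 7.95, H3K4me3 of 19.8 and 14.7, and H3K27ac of 5.37 and 4.78. All of these values were still below the medians of the marked protein-coding promoters in the same lists. Of the 8 blood cell markers, 7 had open promoters in both replicates, 4 had H3K4me3 in both (*Cd68*, *Laptm5*, *Coro1a* and *Spi1*) and 1 had H3K27ac in both, and the part of other cells in the *Osm* peaks was not tested.

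*Osmr* (ENSMUSG00000022146.12), the receptor chain that pairs with gp130 to bind oncostatin M, spans chromosome 15, 6813577 to 6874969, on the minus strand. At its promoter the ATAC-seq fold enrichments were 13.5 and 10.7, and those of H3K4me3 were 17.2 and 12.5. H3K27ac was called only in replicate 1 (fold enrichment 3.83, −log10 q 2.81), weaker than all but 1.11% of the marked promoters. The promoter was thus open and had H3K4me3 in both replicates but no H3K27ac call that repeated. The H3K4me3 values were the lowest of the 9 genes that had the mark in both replicates.

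*Lifr* (ENSMUSG00000054263.12) encodes the LIF receptor and spans chromosome 15, 7090614 to 7197489, on the plus strand. It has 7 TSSs in 4 groups, and within 1 kb of the first of them no peak of any feature was found. Inside its 3 kb promoter, ATAC-seq peaks lay 1.8 and 1.86 kb after it in replicates 1 and 2 (7.15 and 7.43). H3K4me3 was called there in replicate 1 only (3.16). All 3 active features lay together 38945 bp downstream of the first TSS, at 3 TSSs between 7129559 and 7129572. There the fold enrichments in replicates 1 and 2 were 11.9 and 11.6 in ATAC-seq, 31.8 and 25.9 in H3K4me3 and 10.2 and 8.09 in H3K27ac. The start sites 49928 and 63739 bp after the first had none of the 4 features within 1 kb, so the marks were confined to 1 of the 4 groups at this distance. When only the outermost TSS was counted, *Lifr* lost H3K4me3 and H3K27ac and kept ATAC-seq.

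*Il6st* (ENSMUSG00000021756.12), which encodes gp130, spans chromosome 13, 112464070 to 112510086, on the plus strand. Its H3K27ac promoter peak was the highest of the 10 genes, at 36.8-fold in replicate 1 and 31.3-fold in replicate 2. It ranked 357 among the 24217 H3K27ac peaks of replicate 1 and 254 among the 18589 of replicate 2. Both peaks spanned over 2 kb (2424 and 2290 bp), while H3K4me3 was nearer to the middle of the group, with fold enrichments of 26.9 and 22.2. ATAC-seq had fold enrichments of 15.7 and 14.7. All of these lay at the first group of 4 TSSs, and the 3 groups further downstream had no peak within 1 kb. The shared chain thus stood at the top of the H3K27ac order, and *Osmr* had no peak in both replicates to place in it.

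*Jak1* (ENSMUSG00000028530.14), a kinase used by gp130 and by many other cytokine receptors, spans chromosome 4, 101152367 to 101265282, on the minus strand. It had the highest H3K4me3 values of the 10 genes, 45.9 and 31.9, which ranked 295 and 676 in their lists. H3K27ac was 34.1 and 25.4. At the first TSS group the ATAC-seq values were 14.7 and 17.2, and a further peak in an intron, 2540 and 2516 bp after an internal TSS, had 22.3 and 16.8. *Jak2* (ENSMUSG00000024789.13), the kinase that also serves receptors of growth hormone and erythropoietin, spans chromosome 19, 29251828 to 29313080, on the plus strand. It had 11.3 and 12.4 in ATAC-seq, 19.3 and 15.7 in H3K4me3 and 16.9 and 18.8 in H3K27ac. For H3K4me3 and H3K27ac, the replicates of *Jak1* lay above those of *Jak2* without overlap.

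*Stat3* (ENSMUSG00000004040.16) spans chromosome 11, 100885098 to 100939540, on the minus strand and has 14 TSSs in 6 groups. At the first group the fold enrichments were 19.5 and 14.5 in ATAC-seq, 41.9 and 28.4 in H3K4me3 and 26 and 27.8 in H3K27ac. No other group had H3K27ac within 1 kb. The groups 33694 and 44418 bp downstream were open in both replicates, with ATAC-seq fold enrichments of 7.95 and 6.42 and of 9.2 and 8.32. The transcription factor therefore ranked just below *Jak1* in H3K4me3 in each replicate, although their ranges over the replicates overlapped.

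The 3 inhibitor genes shared wide H3K4me3 peaks. *Socs1* (ENSMUSG00000038037.5), whose product blocks JAK kinases directly, spans chromosome 16, 10782240 to 10785536, on the minus strand, and its H3K4me3 peak of replicate 1 reached from 10782200 to 10786485, across the whole gene. These peaks were 4286 and 3951 bp wide at *Socs1*, 4212 and 3861 bp at *Socs2* and 4764 and 3852 bp at *Socs3*, against medians of 1615 and 1338 bp over the marked promoters of protein-coding genes. Between 97.3% and 98.6% of those promoters had narrower peaks. *Jak2* came next, with 3714 and 2930 bp. The H3K4me3 fold enrichment at *Socs1* was 36.6 in replicate 1 and 16.1 in replicate 2, a ratio of 2.28, and in the other 8 genes with both values this ratio ran from 1.2 to 1.55. *Socs1* had ATAC-seq fold enrichments of 6.56 and 6.28, higher than only 10.3% and 11% of marked promoters, together with H3K27ac of 23 and 20.

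*Socs2* (ENSMUSG00000020027.18), an inhibitor best known from growth hormone signalling, spans chromosome 10, 95385362 to 95417180, on the minus strand. It had 33.6 and 21.6 in H3K4me3 and 12.1 and 10 in H3K27ac. In ATAC-seq the strongest peak was a different site in each replicate. The site 0.386 and 0.414 kb after the first TSS had 8.75 and 6.13, and the site 2.17 and 2.18 kb after it had 7.81 and 9.8. A weaker H3K4me3 peak lay further inside *Socs2*, 22.3 and 22.2 kb after the first TSS and 1940 and 2036 bp from an internal one, with fold enrichments of 7.42 and 5.6, and H3K27ac was found there in replicate 1 only (5.75). *Socs3* (ENSMUSG00000053113.3), which binds gp130 itself and is a classical STAT3 target, spans chromosome 11, 117966079 to 117970047, on the minus strand. It had 15 and 13.6 in ATAC-seq, 27.3 and 22.7 in H3K4me3 and 11.2 and 8.67 in H3K27ac. The printed *Socs3* promoter site falls in this ATAC-seq peak, with summits 3 bp apart in the 2 replicates and in an intron of the longest transcript.

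Ordered by their mean, the H3K27ac fold enrichments were 34 ± 3.91 (SD, n = 2) for *Il6st*, 29.7 ± 6.17 for *Jak1*, 26.9 ± 1.29 for *Stat3*, 21.5 ± 2.12 for *Socs1*, 17.8 ± 1.3 for *Jak2*, 11 ± 1.46 for *Socs2*, 9.92 ± 1.76 for *Socs3* and 9.16 ± 1.52 for *Lifr*. The replicates of *Il6st*, *Jak1* and *Stat3* overlapped from each to the next, and so did those of *Socs2*, *Socs3* and *Lifr*. *Socs1* and *Jak2* overlapped with no neighbour in the order. In H3K4me3 the 7 highest genes, from *Jak1* (38.9 ± 9.96, SD, n = 2) to *Il6st* (24.6 ± 3.33), overlapped from each to the next. Of the steps between neighbours, only that from *Il6st* to *Jak2* (17.5 ± 2.49) had no overlap. *Socs1*, 1 of the 7 (36.6 and 16.1), still overlapped with *Jak2* (19.3 and 15.7) and *Osmr* (17.2 and 12.5). Every gene in this order was higher in replicate 1, as was the median of all marked promoters. The SD therefore includes a difference between the lists. In ATAC-seq the strongest promoter peaks of *Jak1* and *Socs2* were different sites in the 2 replicates, so that their places in the order are not those of 1 site. *Stat3* (17 ± 3.54, SD, n = 2), *Il6st* (15.2 ± 0.714) and *Socs3* (14.3 ± 0.971) had the highest means of the other genes and overlapped from each to the next. *Socs1* (6.42 ± 0.194) and *Osm* (4.98 ± 0.313) had the lowest and did not overlap, while the *Socs2* site nearest to the first TSS (8.75 and 6.13) overlapped with *Socs1*. Over the members with a peak, the medians were 12.7 and 12 for ATAC-seq (10 and 10 genes), 29.6 and 22.2 for H3K4me3 (10 and 9 genes), and 16.9 and 19.4 for H3K27ac (9 and 8 genes). The medians of all marked protein-coding promoters were 13.3 and 12.2, 23.9 and 17.6, and 13.9 and 12.

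H3K27me3 was also absent from the surroundings. No peak of either replicate lay in any of the 10 gene bodies or within 50 kb of them, whereas 16.6% and 22.4% of protein-coding genes had such a peak in replicates 1 and 2. The nearest one was 51.4 kb from *Stat3* in replicate 1 and 131 kb in replicate 2. At *Osmr* the distances were 118 and 117 kb, and those of the other members lay between 384 and 1295 kb. The H3K27me3 lists are short and were called at a p-value limit, so that weaker or broader domains can be missing from them.

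Many open sites lay away from promoters (the maps of peaks along each gene). In the gene bodies and 50 kb on either side there were 154 distal ATAC-seq peaks in replicate 1, of which 107 overlapped a peak of replicate 2, and 116 in replicate 2, of which 96 had a counterpart. The median member had 14 and 11.5 such peaks in replicates 1 and 2, against 4 and 2 for all protein-coding genes, whose regions were also shorter (117425 against 150230 bp at the median). Per 100 kb, the medians were 9.96 and 6.94 for the members and 2.91 and 1.82 for all protein-coding genes. Of the 107 peaks, 36 lay upstream, 37 downstream and 34 inside the genes, and for 80 the nearest protein-coding TSS was that of a member. Their fold enrichments ran from 2.97 to 28.4, with a median of 6.04.

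**Figure D2:**
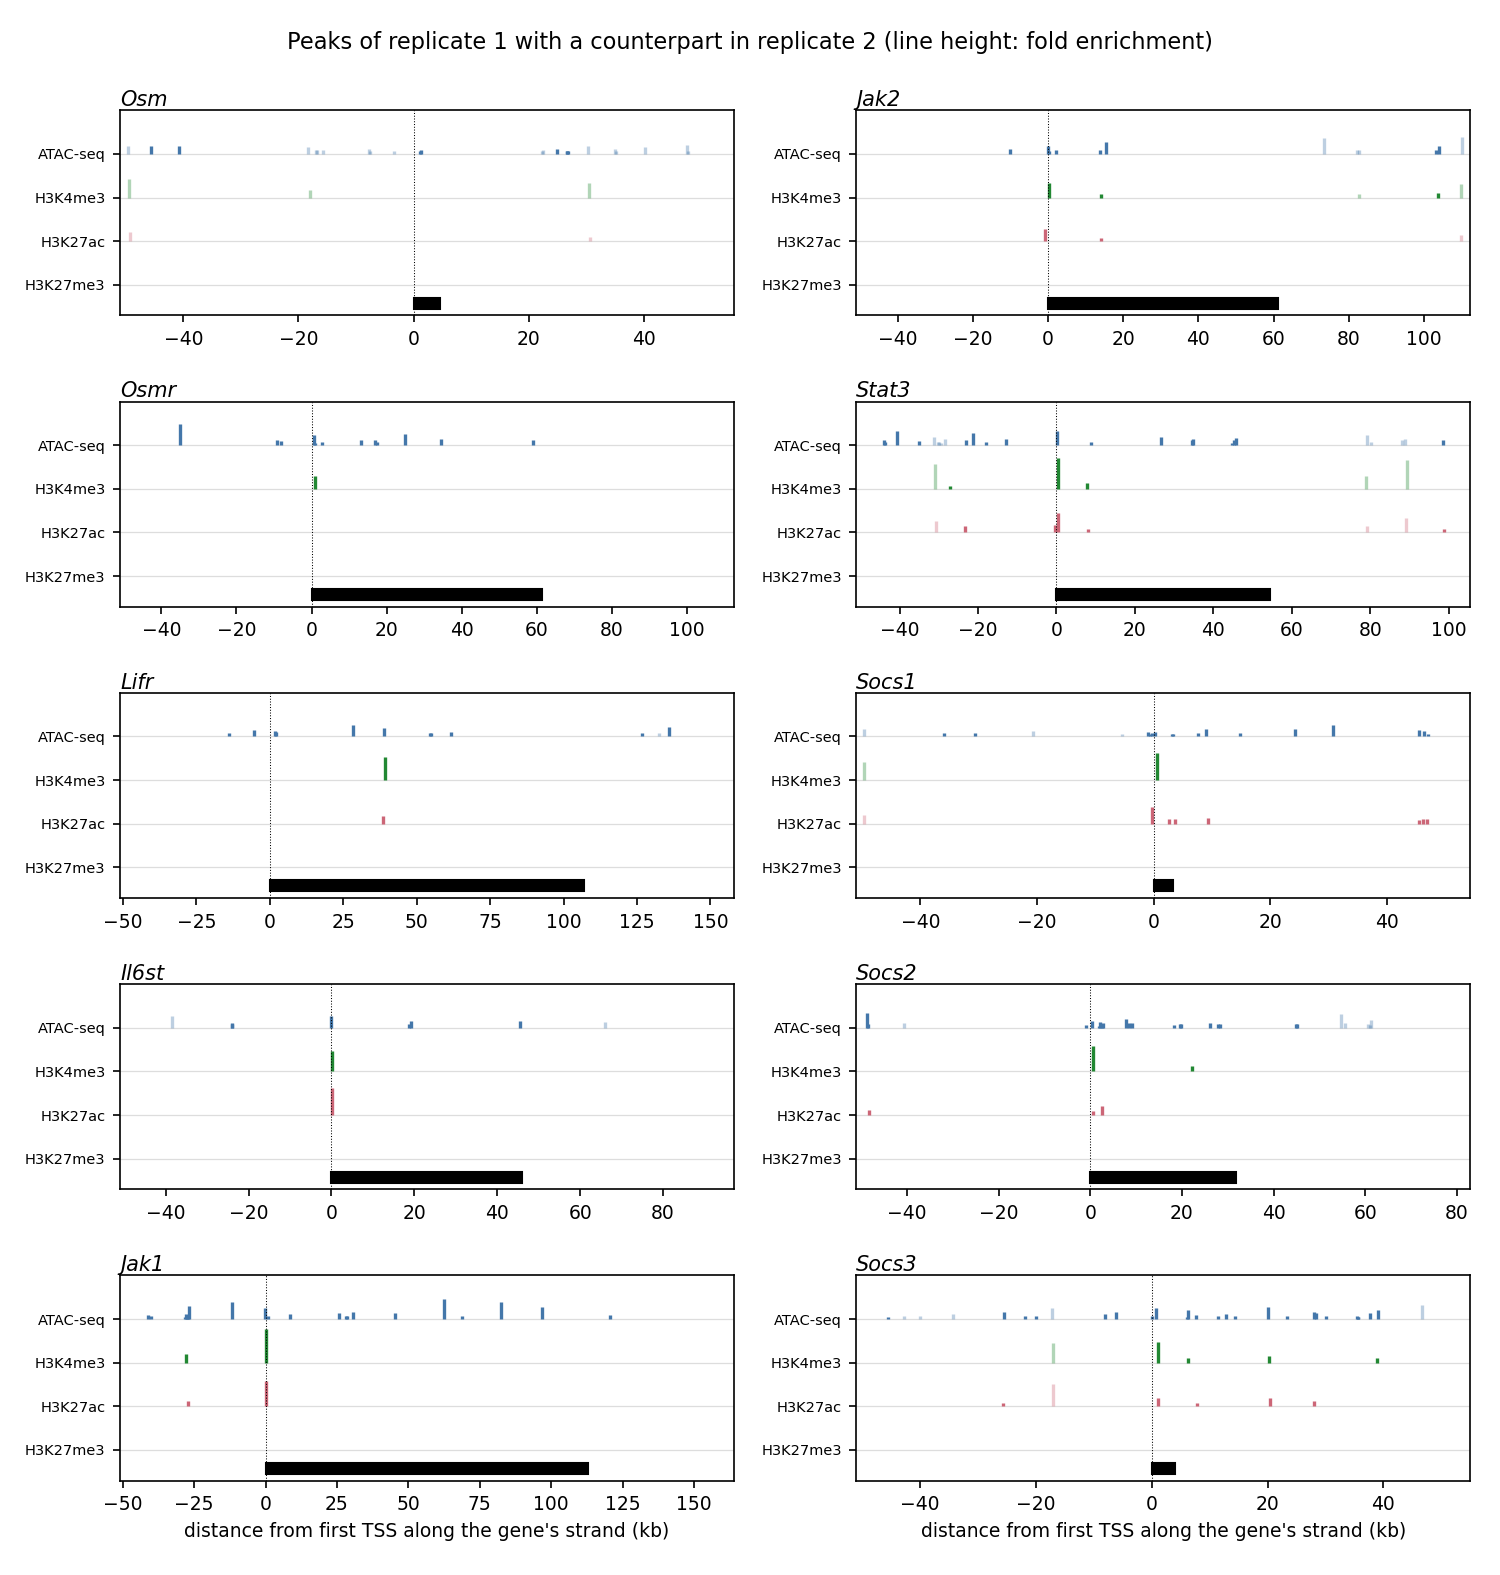
Peaks of replicate 1 that overlap a peak of replicate 2, by distance of the summit from the first TSS along the gene's strand (x axis, kb), in 1 panel per gene with 1 row per feature; the height of a line is its fold enrichment (the tallest, H3K4me3 at the first TSS of *Jak1*, is 45.9), pale lines lie at promoters of other genes, and black bars are the genes. *Lifr* shows its H3K4me3 and H3K27ac lines 39.1 and 38.6 kb after the dotted first TSS, *Socs1* and *Socs3* show several distal H3K27ac lines, and the H3K27me3 row is empty in every panel.

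The densest surroundings were those of *Socs3* and *Socs1* in ATAC-seq of replicate 2 and in H3K27ac of both replicates, whereas in ATAC-seq of replicate 1 *Jak1* came between them (the plot of distal peaks per 100 kb). Around *Socs3* there were 25 and 20 distal ATAC-seq peaks in replicates 1 and 2, or 24 and 19.2 per 100 kb. Only 7 and 9 of the 21938 protein-coding genes had a higher density. *Socs3* also had 10 and 6 distal H3K27ac peaks, a density exceeded by 21 and 62 genes, and 4 and 4 distal H3K4me3 peaks. Of its distal H3K27ac peaks, 4 and 4 had a counterpart in the other replicate. *Socs1* followed with 13.6 and 16.5 distal ATAC-seq peaks per 100 kb and with 6 and 5 distal H3K27ac peaks. *Jak1* reached 14.6 per 100 kb in replicate 1 but 7.98 in replicate 2, and *Stat3* had 11.7 and 8.42. *Socs2* had 10.6 and 7.59, below both of these genes, and 0.759 distal H3K27ac peaks per 100 kb in each replicate. *Jak2* was lowest with 4.96 and 3.1 per 100 kb, still above the median gene.

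**Figure D3:**
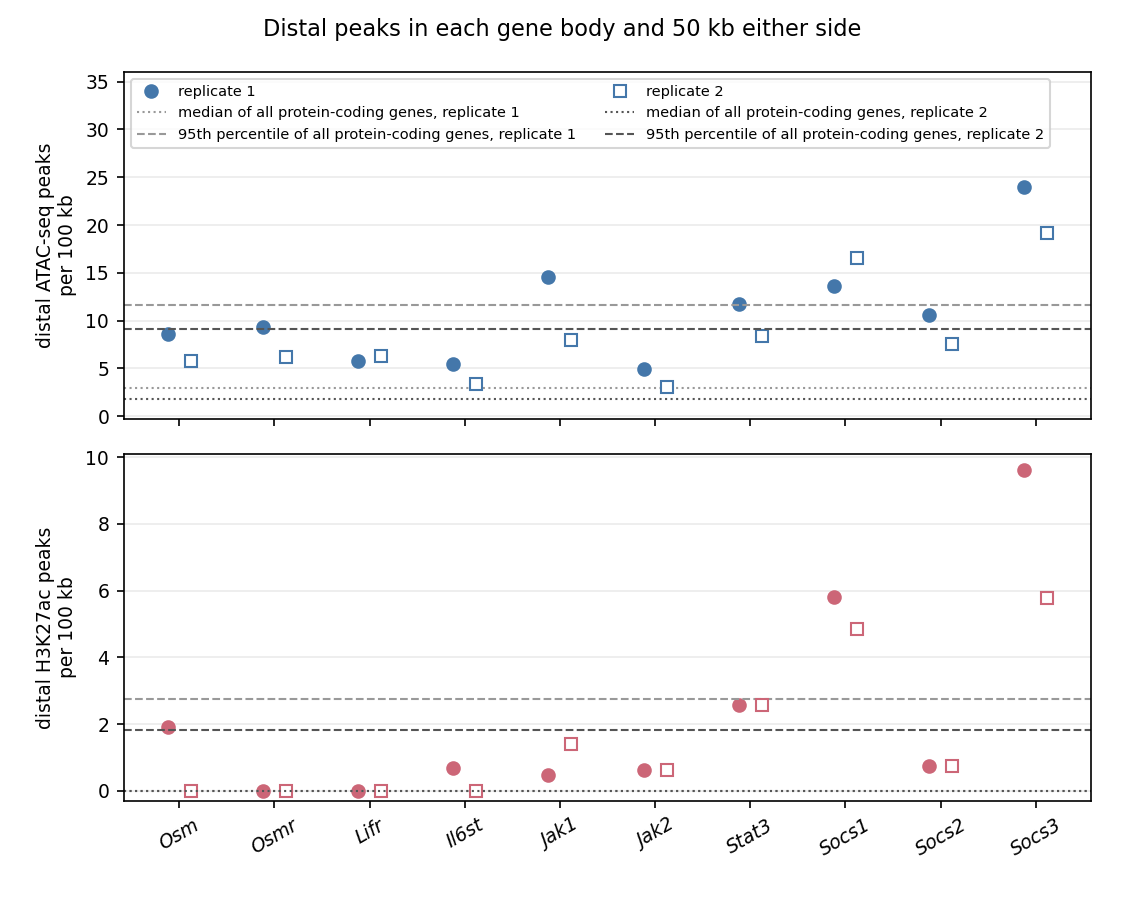
Distal ATAC-seq and H3K27ac peaks per 100 kb (y axes) in each gene body and 50 kb either side (x axis); filled circles are replicate 1, open squares replicate 2, and lines show the median and the 95th percentile of all protein-coding genes. *Socs3* and *Socs1* lie above the 95th percentile in both replicates and both panels, and *Osmr* and *Lifr* have 0 distal H3K27ac peaks.

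H3K27ac marked fewer distal sites than ATAC-seq. In replicate 1 there were 26 distal H3K27ac peaks, 15 of them with a counterpart in replicate 2, where 16 of 20 had a counterpart. They lay at *Jak1*, *Jak2*, *Stat3*, *Socs1*, *Socs2* and *Socs3*. *Osmr* and *Lifr* had no distal H3K27ac peak in either replicate, and those of *Osm* (2 peaks) and *Il6st* (1 peak) were found in replicate 1 only. The ligand and the 3 receptor chains had no distal H3K27ac peak that both replicates shared. Most protein-coding genes had no distal H3K27ac peak either. Only 6106 and 4337 of the 21938 had any in replicates 1 and 2.

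The strongest distal H3K27ac peak lay downstream of *Socs3*, 20.4 kb from its first TSS, with fold enrichments of 11.5 and 8.83. These values were close to those of the gene's own promoter, 11.2 and 8.67. The printed *Socs3* downstream site is the open core of this region, with ATAC-seq fold enrichments of 16.7 and 15.9, and H3K4me3 of 9.51 and 7.42 covered it too. No annotated TSS of any gene lay within 3 kb. Further H3K27ac peaks in both replicates stood 7.84 kb (4.02 and 4.78) and 28 kb (7.28 and 4.92) downstream of the first TSS. A last one lay 25.6 kb upstream (4.98 and 5.15), at the printed *Socs3* upstream site, whose ATAC-seq fold enrichments were 10.1 and 10.3. That site is nearer to the TSS of *Pgs1*, a gene of phospholipid synthesis, whose promoter had H3K27ac of 29.5 and 26.1.

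Downstream of *Socs1*, 5 distal H3K27ac peaks were shared. The strongest of them, 9.3 kb from the TSS, had fold enrichments of 7.66 and 5.52 beside an open site of 10.6 and 14.3. Between 45.5 and 46.9 kb from the TSS, 3 peaks formed a cluster with fold enrichments of 5.37 to 6.9 in replicate 1 and of 3.68 to 5.15 in replicate 2. Between these, 30.8 kb from the TSS, an ATAC-seq peak of 15.4 in both replicates carried no H3K27ac. The neighbours of *Socs1* on its other side include *Prm3* and also *Prm1*, *Prm2* and *Tnp2*, which encode sperm chromatin proteins. *Prm1*, *Prm2* and *Prm3* had ATAC-seq but no H3K4me3 or H3K27ac promoter peak in both replicates, and the promoter of *Tnp2* reaches into the marked region of *Socs1*.

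Upstream of *Jak1*, 27.3 kb before the first TSS, a region had H3K27ac of 6.9 and 7.36, H3K4me3 of 11.9 and 7.34, and ATAC-seq of 16.9 and 17.7. The 2 strongest distal open sites of *Jak1* had no H3K27ac call that repeated. One was the printed *Jak1* intron site, with ATAC-seq fold enrichments of 26.9 and 24.9, where a weak H3K27ac peak (3.31) was called in replicate 2 only. The other lay 11.6 kb upstream, with 22.7 and 20, and had none in either replicate. *Stat3* had a shared H3K27ac peak in an intron, 7.98 kb after the first TSS (4.98 and 4.41), with H3K4me3 of 8.21 and 4.55. Its other shared distal peaks were nearer to other genes, to *Cavin1*, which encodes a coat protein of caveolae, 23.3 kb upstream (8.43 and 3.68), and to *Stat5b*, another STAT gene, on the downstream side (4.22 and 4.78). The *Jak2* peak lay in an intron, 14 kb after the first TSS, and was weak (3.68 and 5.26). At *Socs2*, H3K27ac of 6.12 and 6.66 lay 48.4 kb upstream beside an open site of 20.4 and 16.8, nearer to *Mrpl42*, a gene of the mitochondrial ribosome.

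*Osmr* and *Lifr*, like *Jak1* and *Socs1*, had strong open sites without H3K27ac. Of the members' shared distal ATAC-seq peaks, weak and strong, 15 of 107 in replicate 1 and 14 of 96 in replicate 2 overlapped H3K27ac of both replicates. The same share over all shared distal ATAC-seq peaks was not computed. The H3K27ac lists are also much shorter than those of ATAC-seq, so these counts show nothing particular to the members. An H3K27ac peak that only flanks an open site was not counted as overlap. The printed *Osmr* upstream site, 34.9 kb before the first TSS, had ATAC-seq fold enrichments of 28.4 and 25.3, above those of the *Osmr* promoter. A further site in an *Osmr* intron, 24.9 kb after the first TSS, reached 15.3 and 14.2. In *Lifr*, an intronic site between the first TSS and the group with all active features, 28.3 kb after the first TSS, reached 15.6 and 15.9. The highest fold enrichment of any peak at the 10 genes, singled out after the values were seen, was an ATAC-seq peak of 77.7 in a *Lifr* intron, 94.4 kb after the first TSS. It was 119 bp wide, overlapped no peak of replicate 2 and is left out of the map of shared peaks. *Il6st* had the weakest distal sites of the receptor genes, with at most 9.67 in replicate 1 and 7.61 in replicate 2. Around *Osm*, the 2 strongest sites lay 40.7 kb (11.1 and 11) and 45.7 kb upstream (10.4 and 8.22, with H3K27ac of 3.66 in replicate 1 only), nearer to *Tbc1d10a*, which encodes a regulator of small GTPases.

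The STAT motif TTCNNNGAA was searched on both strands in the 100 bases on either side of each ATAC-seq summit. Of the members' distal peaks with a counterpart, 11 of 107 (10.3%) held it in replicate 1 and 10 of 96 (10.4%) in replicate 2, against 5.13% and 4.94% of all distal peaks with a counterpart. At the members' own promoters it was found in 5 of 35 windows (14.3%) in replicate 1 and 2 of 30 (6.67%) in replicate 2, against 3.67% and 3.55%. The strict form TTCCNGGAA, which is contained in the other, was found in 2 of 107 (1.87%) and 2 of 96 (2.08%) of the members' shared distal windows. Of all such distal windows, 0.757% and 0.756% held it. At the members' promoters it was found in 1 of 35 (2.86%) and 1 of 30 (3.33%) windows, against 0.648% and 0.592%. In the members it occurred at the printed *Socs3* promoter and *Socs3* upstream sites and at a weak peak 17.9 kb upstream of *Stat3* (3.86 and 5.08) inside an untranslated region of *Cavin1*. Among the shared windows of the 10 genes, the strict palindrome lay only in those of *Stat3* and *Socs3*, too few matches to compare genes. Some windows overlap, as at *Socs2*, where 2 windows hold the same match, and a match is not evidence of binding.

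The AP-1 motif was more common than the STAT motif in the members' distal windows, as it was in all shared distal windows. At the members' promoters this held in replicate 2 but not in replicate 1. The AP-1 motif was found in 28 of 107 (26.2%) and 29 of 96 (30.2%) of the members' shared distal windows. These shares were near the 26.5% and 27.3% of all shared distal windows. At the promoters the counts were 5 of 35 (14.3%) and 8 of 30 (26.7%), against 12% and 12.7%. The printed *Jak1* intron site held 2 matches and the printed *Stat3* upstream site 1, and the open site 30.8 kb from the TSS of *Socs1* held 3. No shared window of *Il6st* held the motif in replicate 1.

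Other genes of the pathway were taken from a list of 46 (the grid of promoter states). ATAC-seq peaks in both replicates lay at 44 of these promoters (67.8% of protein-coding genes), H3K4me3 at 39 (60.8%) and H3K27ac at 34 (46.6%), and all 3 were present at 34 of 46 (46.2%). H3K27me3 was found at 3 of 46, a share near the 4.81% of protein-coding genes. The 13 other inhibitors and phosphatases, among them *Cish*, the other SOCS genes, the *Pias* genes and the phosphatases, all had the 3 active features and no H3K27me3. Of the 6 other STAT genes 5 had all 3, and *Stat4*, known from T cells, had none in both replicates. Of 13 known STAT3 target genes 11 had all 3. *Icam1*, an adhesion molecule, lacked H3K27ac and had H3K27me3 (4.13 and 3.42), and *Timp1*, a protease inhibitor, lacked H3K27ac and had H3K4me3 in replicate 1 only.

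**Figure D4:**
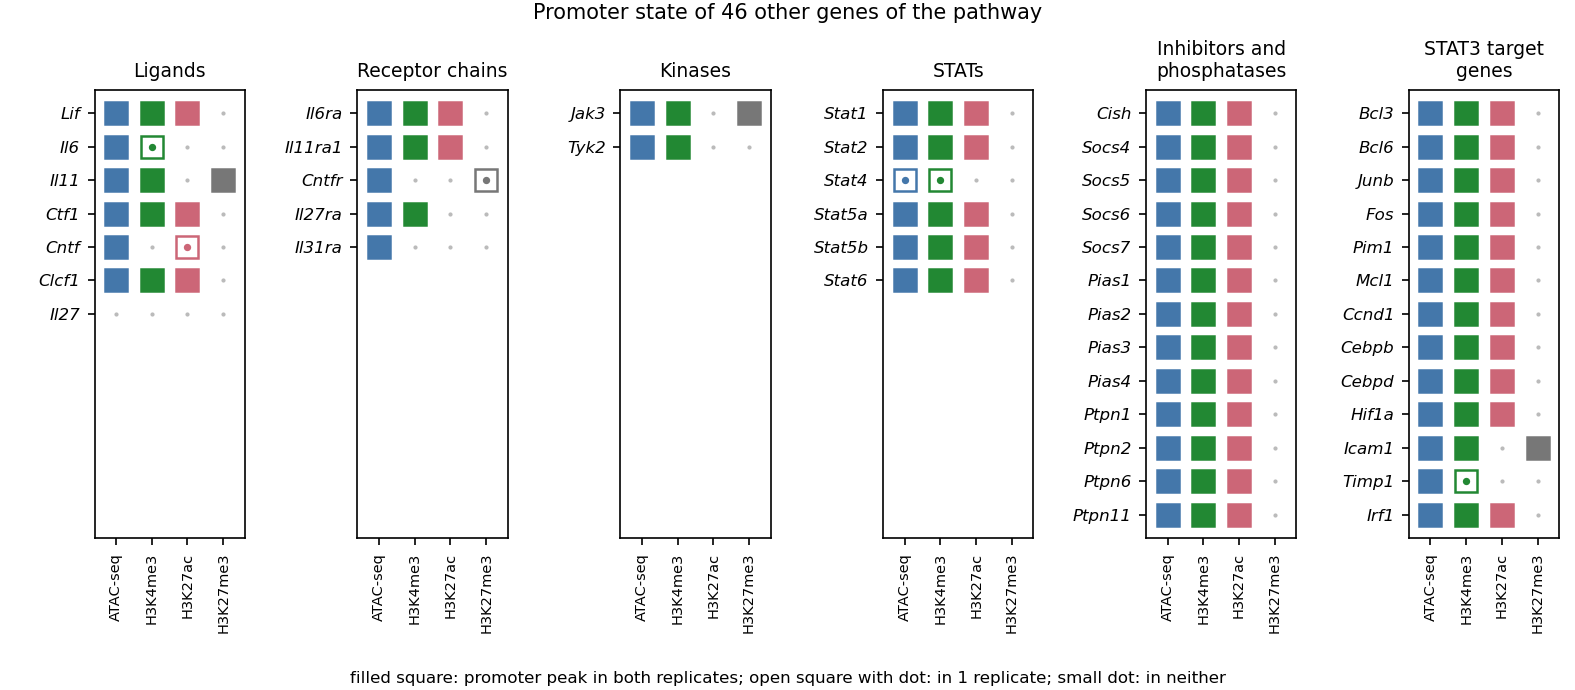
Promoter state of the 46 other pathway genes (rows) for the 4 features (columns), in 6 panels by role; a filled square is a peak in both replicates, an open square with a dot a peak in 1 replicate, and a small dot no peak. All 13 inhibitors and phosphatases are filled for the 3 active features, whereas 3 of 7 ligands, 2 of 5 receptor chains and 0 of 2 kinases are.

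All 3 active features were present at 3 of 7 ligands and 2 of 5 receptor chains. Besides *Lif*, the ligands were *Ctf1* and *Clcf1*, the latter with H3K4me3 of 36.4 and 27.7 and H3K27ac of 15.2 and 15. *Il6*, the founding cytokine of the family, resembled *Osm* in having H3K4me3 in replicate 1 only (3.1) and no H3K27ac. Its ATAC-seq values (13 and 12) were higher than those of *Osm* (4.76 and 5.2). *Cntf* had open chromatin without H3K4me3, and *Il27* had no promoter peak of any feature. *Il11* had H3K4me3 of 8.08 and 6.01 together with H3K27me3 of 4.5 and 3.68. Of the receptor chains, *Il6ra* and *Il11ra1* had all 3 active features. *Il27ra* had H3K4me3 without H3K27ac, while *Cntfr* and *Il31ra*, the neighbour of *Il6st*, had ATAC-seq peaks alone in both replicates. Neither of the 2 other JAK kinases had H3K27ac. *Tyk2* had H3K4me3 of 20.1 and 11.6, and *Jak3*, known from lymphocytes, had H3K4me3 of 14.4 and 11.6 together with H3K27me3 of 3.75 and 3.38. Of the 3 calls of H3K27me3, 1 had a q-value of at most 0.05 in both replicates.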

How the data were processed

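The deposited files used were narrowPeak lists of 8 MuSC libraries. Per the methods and the submitters' processing notes, the authors used Trim Galore 0.6.10, BWA 0.7.17-r1188 (mm10) and, for each library separately, MACS2 2.2.6, after removing duplicates, reads of low mapping quality and blacklisted regions and correcting ATAC-seq for Tn5. The deposited lists give the authors' fold enrichment at each summit, a ratio to local background, and the −log10 of its q-value and p-value. The lowest −log10 q is 1.32 in the 6 lists of active features, and the lowest −log10 p is 3.01 in the H3K27me3 lists, where −log10 q reaches 0. A wide region can be listed as several peaks, which affects counts, and fold enrichments are best compared within a list.

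Overlap was counted from 1 bp against all transcripts of GENCODE M21, on the same build, with Python 3.11.15, numpy 2.4.6 and pandas 2.3.3 (figures: matplotlib 3.10.9), and the counting was checked on simulated intervals. A gene's strongest promoter peak gave its value. Positions are 1-based, and sequences are from the RefSeq copy of GRCm38.p6 (mm10). The members, gene lists and motifs were chosen with earlier results of these data known. All members were named. Of the other pathway genes, ligands, receptor chains and kinases were named by state, and elsewhere those with H3K27me3 or lacking an active feature. Neighbours could be named where their TSS lay in a region examined and peaks lay nearer to them than to the member. Which of them were named, *Tnp2*, *Prm2*, *Mrpl42*, *Cish*, the cell type markers beside counts and the printed sites were chosen after their values were seen. Editing outcomes and other samples were not used here, and 1 pathway gene is not reported. No test was run, since 1 cell population gives no comparison of conditions.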

Additional observations from a re-analysis of the deposited data

How the results depend on the processing

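The counts of members with ATAC-seq, H3K4me3, H3K27ac and H3K27me3 promoter peaks stayed within 1.5 times the values given under promoters of 1 kb, the outermost TSS alone, a −log10 q of at least 5, a summit inside the promoter and either replicate alone, and so did the 34 pathway genes with all 3 active features. The 3 other pathway genes with H3K27me3 fell to 1 with promoters of 1 kb, 1 with the outermost TSS, 1 with a −log10 q of at least 1.3 and 0 with a −log10 q of at least 5. The alternatives leave fewer bases or fewer peaks, and the shares of protein-coding genes were not recounted under them. With a flank of 10 kb, shared distal peaks numbered 49 for ATAC-seq and 5 for H3K27ac, and with a −log10 q of at least 5 the latter numbered 7. Over either replicate alone, distal H3K27ac peaks numbered from 20 (without replicate 1) to 26 (without replicate 2). No paired analysis was possible because the results come from no test. The unknown depth limits every statement on a missing peak, and a replicate with fewer peaks decides which peaks count as shared.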
